A study of Sus scrofa with 35 samples.

Results

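The WNT pathway was followed here through 10 of its genes in a pig stem cell series, namely the WNT ligand WNT8A, the receptors FZD3, FZD5 and FZD7, the secreted antagonists SFRP1, SFRP2 and DKK1, and the pathway targets AXIN2, LEF1 and SP5. They were chosen by symbol, and they are 10 of the 14673 genes that the 4 expression tables list. The series profiles pig expanded potential stem cells (pEPSCs), cells of embryonic origin with a broad developmental potency, and asks how they move between totipotent and pluripotent states. Of its 35 samples, 18 were in the RNA tables used here and 17 were not analysed here.
The 12 pEPSC libraries were wild type, OTX2 overexpression (OTX2_OE), OTX2 knockout (OTX2_KO) or LEUTX overexpression (LEUTX_OE), 3 of each. The 6 libraries of 4-cell embryos were wild type and OTX2 overexpression, with 3 libraries each and 10 zona-free embryos pooled per library. OTX2 and LEUTX are homeobox transcription factors, the first of the epiblast and forebrain and the second of the embryo at genome activation. The labels give no promoter, vector, clone number, culture medium or embryo source for these groups. The knockout columns share 1 line prefix, which no label explains. The labels do not state that replicate libraries are separate cultures or animals, so the p-values measure only the spread between these libraries.

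WNT proteins are secreted lipid-modified ligands that bind Frizzled receptors together with LRP co-receptors. In the canonical branch, binding halts the destruction complex that degrades beta-catenin, and beta-catenin then acts with TCF/LEF factors on target genes. SFRP proteins bind WNT ligands outside the cell, and DKK1 blocks the LRP co-receptors. In mammalian embryos and pluripotent cells the pathway is known for its part in self-renewal and in formation of the primitive streak.

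Levels are the authors' TPM values, transcript counts already divided by transcript length and scaled to a common library total, so that levels of different genes within a library may be set beside each other. A fold change here is a difference between group means on the log2(TPM + 1) scale and understates changes of genes near 1 TPM. In bulk libraries, fewer cells of a type and less RNA per cell cannot be told apart. The 3 pEPSC comparisons share the wild-type libraries.

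The targeted genes followed their labels, with 1 limit. OTX2 was at 252 to 260 TPM in wild-type pEPSCs, 8974 to 10819 TPM with OTX2 overexpression and 99.5 to 130 TPM in the knockout, so its transcript was lower there but still present. LEUTX was listed at 0 in wild-type pEPSCs but at 3073 to 3187 TPM with LEUTX overexpression, and those libraries held OTX2 at 0.131 to 0.294 TPM. In wild-type embryos OTX2 was at 283 to 327 TPM, and overexpression took it to 8276 to 10565 TPM. LEUTX, not targeted in embryos, was at 346 to 631 TPM in wild-type embryos and 12.4 to 80.8 TPM with OTX2 overexpression, and fell by 4.29 on the log2 scale (adjusted p = 0.00323). All 8 pluripotent cell markers were listed in the pEPSC tables and all 11 oocyte and 4-cell embryo markers in the embryo table. Markers of other cell types also differed, and sums over a list hide members that moved apart. Summed TPM of the hypoblast and endoderm list was 65.7 to 71.2 in wild type and 197 to 212 with OTX2 overexpression (6 of 9 markers listed, without SOX17, GATA6 and PDGFRA). In the knockout table the listed markers (4 of 9) summed to 65.4 to 71.0 in wild type and 26.8 to 57.7 in the knockout, and in the LEUTX table (2 of 9) to 64.6 to 69.6 and 36.9 to 42.1, with FOXA2 at 0 in every LEUTX library. The trophoblast list was at 1718 to 1796 in wild type and 5795 to 7825 in the knockout (5 of 11 listed). CDX2, GATA3, GATA2, KRT7, HAND1 and ELF5 were not listed. Most of that sum was the keratin genes KRT8 and KRT18. Knockout means were 4134 TPM for KRT8 and 2613 TPM for KRT18, against 1159 and 536 TPM in wild type. TFAP2C averaged 51.4 TPM, TEAD4 50.4 TPM and TFAP2A 5.37 TPM in the knockout. Their wild-type means were 16.8, 38.5 and 1.17 TPM. Of the 5 tested there, 4 passed as higher and 0 as lower. The list was at 1689 to 1805 with OTX2 overexpression and at 1245 to 1294 with LEUTX overexpression (4 of 11 listed). The fibroblast list was at 228 to 245 in wild type and 393 to 524 in the knockout (10 of 15 listed, without COL3A1, LUM, DCN, POSTN and PDGFRB). It was at 330 to 338 with OTX2 overexpression (11 of 15 listed) and 110 to 120 with LEUTX overexpression. The primitive streak list was at 98.7 to 107 in wild type and 154 to 169 with OTX2 overexpression (9 of 11 listed), where 5 markers rose, among them GSC from 22.5 to 66.3 TPM, and 3 fell, CER1, EOMES and NODAL. T and LHX1 among the 5 had wild-type means under 1 TPM and entered through the overexpression libraries, which leaves 3 higher. In the other tables (7 of 11 listed) the primitive streak list was at 98.4 to 106 in wild type, 95.9 to 136 in the knockout (1 rose, 2 fell) and 90.1 to 97.4 with LEUTX overexpression (2 rose, 5 fell). FOXA2, CER1 and EOMES among these 5 had means under 1 TPM with LEUTX overexpression and entered through wild type, which leaves 2 lower. The neuroectoderm list (3 of 9 listed) was at 145 to 148 in wild type and 253 to 267 with LEUTX overexpression, where NES alone rose, from 68.7 to 254 TPM, while HESX1 fell from 62.6 to 5.05 TPM and LHX5 from 15.5 to 0.488 TPM. It was at 70.7 to 94.3 in the knockout, and at 111 to 137 with OTX2 overexpression against 146 to 150 in wild type (6 of 9 listed, 4 higher and 2 lower). RAX, SIX3 and LHX2 among the 4 entered through the overexpression libraries, which leaves 1 higher. In the knockout and LEUTX comparisons LHX5 entered through wild type. The shares of all genes that rose or fell, given below, are to be read beside these marker counts. The pluripotent list was at 5279 to 5736 in wild type, 2412 to 2719 with OTX2 overexpression, 3639 to 6684 in the knockout and 3117 to 3201 with LEUTX overexpression. In embryos the oocyte and 4-cell list was at 2603 to 3064 in wild type and 3377 to 4680 with overexpression, and none of the 7 cumulus and granulosa markers was listed. TFAP2C, the 1 trophoblast marker of 11 listed in embryos, fell there from 144 to 341 TPM down to 18.9 to 30.5 TPM (log2 fold change -3.27, adjusted p = 0.000732). NANOG, the 1 of 6 pluripotent markers tested that passed in embryos, was at 16.5 to 43.2 TPM in wild-type libraries, against 0 to 4.19 TPM with overexpression (adjusted p = 0.00396). Its overexpression mean was 1.43 TPM and not every overexpression library reached 1 TPM. NANOG thus entered the test through wild type, and its p-value carries the limit of entry given below. The part of these genes and lists in the WNT values was not tested. Knockout library 1 stood apart, with 20.4% of its TPM in the 13 mitochondrial protein genes against 9.25% and 9.37% in the other knockout libraries.

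The median log2 fold change of all genes tested was 0.20 with OTX2 overexpression, -0.11 in the knockout, 0.11 with LEUTX overexpression and 0.28 in embryos, and the WNT values below are read beside these shifts. In pEPSCs with OTX2 overexpression, 8 of the 8 listed members passed the test, 3 higher and 5 lower, where 82.4% of all genes passed, 48.9% higher and 33.5% lower. In the OTX2 knockout, 5 of 7 passed, all lower, where 37.1% of all genes passed, 14.9% higher and 22.3% lower. With LEUTX overexpression, 6 of 7 passed, 3 higher and 3 lower, where 69.7% of all genes passed, 41.6% higher and 28.1% lower. In embryos, 4 of 6 passed, 2 higher and 2 lower, where 29.4% of all genes passed, 21.5% higher and 7.93% lower. The direction of these calls over all genes depends on the scaling. With quantile normalization the 6485 higher and 4450 lower genes of OTX2 overexpression became 5207 and 5734, and the 5233 and 3528 of LEUTX overexpression became 4183 and 4740. With median-ratio scaling the 1820 and 2732 of the knockout became 2965 and 2891. A gene passed at a limma adjusted p of at most 0.05. Since most genes passed in 2 of the pEPSC comparisons, the sizes below say more than the counts. LEF1 with OTX2 overexpression in pEPSCs, and FZD7 and SP5 in embryos, entered the test only through the group in which they were high. The same holds for every gene of the wider lists with a mean under 1 TPM in 1 of the groups compared. WNT8A with OTX2 overexpression, at a mean of 0.863 TPM, is among them. The direction of such genes follows from that entry, so they are counted out beside each list and given as values.

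Each member has 1 annotated locus in Sscrofa11.1 (RefSeq). WNT8A lies at chr2:140103322-140113682, SFRP1 at chr17:10436414-10489773, SFRP2 at chr8:75337311-75345926 and DKK1 at chr14:97487854-97490118. FZD3 lies at chr14:12281127-12394768. FZD7 at chr15:105644164-105648860, FZD5 at chr15:110913990-110921388 and SP5 at chr15:76900138-76905024 share chromosome 15. AXIN2 at chr12:12311293-12343207 overlaps CEP112, LEF1 at chr8:113824511-113944078 overlaps 2 long non-coding RNA genes, and WNT8A overlaps 1 (LOC102167109). Whether counting used strand is not given in the sources used here, so reads of these 3 genes and of their overlapping partners may not be fully separated.

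Not every member was listed in every table. DKK1 and SP5 were not in any pEPSC table, and LEF1 was in the OTX2 overexpression table but not in those of the knockout and LEUTX overexpression. WNT8A, SFRP1, SFRP2 and AXIN2 were not in the embryo table. Every gene listed has a mean of at least 1 TPM over the 6 libraries of its table, and no level is given for a member that is not listed.

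In wild-type pEPSCs the receptors FZD5 and FZD7 and the antagonists SFRP1 and SFRP2 stood highest, and the ligand and the TCF/LEF factor lowest. FZD5 was highest at 212 ± 16.0 TPM (SD, n = 3 libraries, as for all such values). SFRP1 at 111 ± 2.19 TPM and FZD7 at 105 ± 8.21 TPM followed with overlapping ranges. SFRP2 was at 30.5 ± 4.93 TPM, and AXIN2 at 12.6 ± 1.92 TPM overlapped FZD3 at 11.9 ± 0.334 TPM. WNT8A at 4.61 ± 0.917 TPM and LEF1 at 0.663 ± 0.0526 TPM closed the order. With LEUTX overexpression the order changed, with WNT8A first at 263 ± 16.7 TPM and FZD7 last at 2.32 ± 0.191 TPM among the members listed there.

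**Figure D1:**
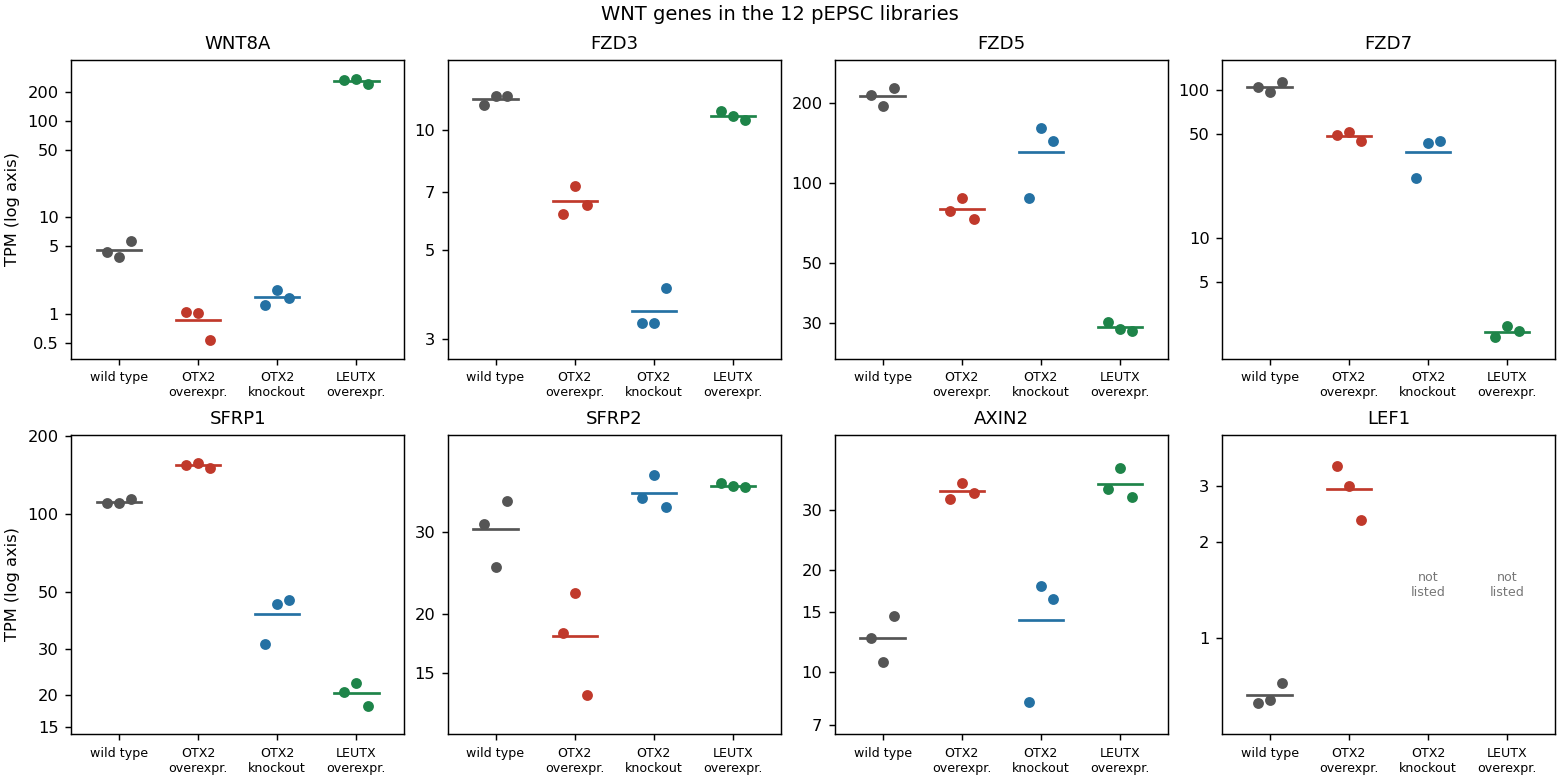
TPM (log axis, own range per panel) of the 8 WNT genes listed in pEPSCs, with 1 point per library in 4 groups and a line at each group mean. WNT8A stands at 243 to 274 TPM with LEUTX overexpression and under 6 TPM in the other groups, while FZD7 and FZD5 are lowest with LEUTX overexpression.

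WNT8A, a ligand of the early embryo and primitive streak in mouse, moved in opposite directions in the engineered lines. The wild-type libraries held 4.34, 3.86 and 5.63 TPM of it, against 270, 274 and 243 TPM with LEUTX overexpression. Every LEUTX library was far above every wild-type library, a 57.0-fold ratio of means and a log2 fold change of 5.56 (SE 0.108, with an adjusted p of 1.27e-09). With OTX2 overexpression WNT8A was at 1.04, 1.01 and 0.533 TPM, all below wild type, and fell by 1.59 (SE 0.158, adjusted p = 4.54e-06). Its mean there was 0.863 TPM, so this p-value carries the limit of entry through wild type given above. The knockout libraries held 1.22, 1.77 and 1.46 TPM, also all below wild type, a fall by 1.17 (SE 0.170, adjusted p = 0.00307). WNT8A values were thus lower both where OTX2 was raised, with that limit, and where it was lowered. The 3 LEUTX libraries also had OTX2 near 0 TPM, and WNT8A was high there.

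The other ligands did not all follow WNT8A. With OTX2 overexpression 8 of the 19 WNT ligand genes were listed. WNT8A, the 1 that passed as lower, entered through wild type. The 6 that passed as higher, WNT2B, WNT5A, WNT5B, WNT9A, WNT11 and WNT16, all had wild-type means under 1 TPM and were listed only through the overexpression libraries, so their number says nothing on the ligands as a group. WNT2B was at 0.350 ± 0.144 TPM in wild-type libraries, against 5.06 ± 0.201 TPM with overexpression. WLS, the carrier that brings WNT ligands to the cell surface, also entered through the overexpression libraries, with 0.545 ± 0.147 TPM in wild-type libraries against 34.9 ± 2.56 TPM. PORCN, the enzyme that adds their lipid, was well above 1 TPM in both groups and fell from 23.7 ± 1.56 to 16.6 ± 2.49 TPM. In the knockout, 4 ligands were tested. WNT3, a canonical ligand needed for the mouse primitive streak, was at 4.31 ± 0.340 TPM in wild type and rose to 14.6 ± 4.68 TPM there, and WNT8A fell. WNT5B passed as higher and WNT3A as lower, each through 1 group alone, and WLS was at 1.87 ± 0.413 TPM. With LEUTX overexpression 6 ligands were tested. WNT8A and WNT3 rose from wild-type means above 1 TPM, WNT3 to 27.4 ± 1.71 TPM (log2 fold change 2.42). WNT5A, WNT5B and WNT9A passed as higher but entered through the LEUTX libraries, with WNT5A at 8.99 ± 0.583 TPM there against 0.590 ± 0.164 TPM in wild type. PORCN fell to 16.3 ± 1.03 TPM.

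FZD7, a Frizzled receptor of human and mouse pluripotent cells, was lower in each engineered pEPSC group. It was at 105, 96.8 and 113 TPM in the wild-type libraries, 49.2, 51.8 and 45.2 TPM with OTX2 overexpression, 25.3, 43.8 and 44.9 TPM in the knockout and 2.13, 2.51 and 2.32 TPM with LEUTX overexpression. No library of an engineered group reached the lowest wild-type value. FZD7 fell by 1.09 with OTX2 overexpression (SE 0.0744, adjusted p = 2.75e-07) and by 1.48 in the knockout (SE 0.223, adjusted p = 0.00346). With LEUTX overexpression it fell by 4.99 (SE 0.0824, adjusted p = 5.47e-10), a 45.2-fold ratio of means.

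FZD5, a receptor for several canonical ligands, fell in the same 3 comparisons. Wild-type libraries were at 214, 194 and 226 TPM, against 78.6, 88.1 and 73.2 TPM with OTX2 overexpression, a fall by 1.39 (SE 0.0773, adjusted p = 6.74e-08). It was at 30.11, 28.49 and 28.03 TPM with LEUTX overexpression, a fall by 2.83 (SE 0.0608, adjusted p = 2.74e-09). Neither group overlapped wild type. The knockout libraries were at 87.6, 160 and 144 TPM, also below wild type but widely spread, and FZD5 fell by 0.74 (SE 0.219, adjusted p = 0.0368). That call was lost when any 1 wild-type library or knockout library 4 was left out, with adjusted p from 0.0530 to 0.119.

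FZD3, a receptor known for axon guidance and planar polarity in mouse, showed another order. It was at 11.5, 12.1 and 12.2 TPM in the wild-type libraries, 6.15, 7.21 and 6.49 TPM with OTX2 overexpression and 3.28, 3.29 and 4.01 TPM in the knockout. The 3 groups did not overlap, and FZD3 fell by 0.77 with OTX2 overexpression (SE 0.0917, adjusted p = 1.98e-05) and by 1.52 in the knockout (SE 0.135, adjusted p = 0.000586). With LEUTX overexpression it was at 11.13, 10.83 and 10.56 TPM, just below wild type, with a log2 difference of -0.13 that did not pass (95% interval -0.29 to 0.04, adjusted p = 0.143). Quantile normalization (-0.38) and median-ratio scaling (-0.23, adjusted p = 0.0142) let it pass as lower.

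The 9 Frizzled genes listed in all 3 pEPSC tables were also summed. Their total was 438 ± 26.2 TPM in wild type, 228 ± 15.9 TPM with OTX2 overexpression, 305 ± 72.7 TPM in the knockout and 128 ± 3.26 TPM with LEUTX overexpression. In the knockout, library 1 gave 222 TPM and the other libraries 356 and 338 TPM. The makeup shifted as well. FZD5 was 48.3% of the wild-type total, 35.0% with OTX2 overexpression, 42.4% in the knockout and 22.5% with LEUTX overexpression. FZD7 was 24.0% of the wild-type total, 21.4% with OTX2 overexpression, 12.3% in the knockout and 1.81% with LEUTX overexpression. FZD3 went from 2.73% in wild type to 8.46% with LEUTX overexpression, where the total was lower and its own level was near wild type.

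**Figure D2:**
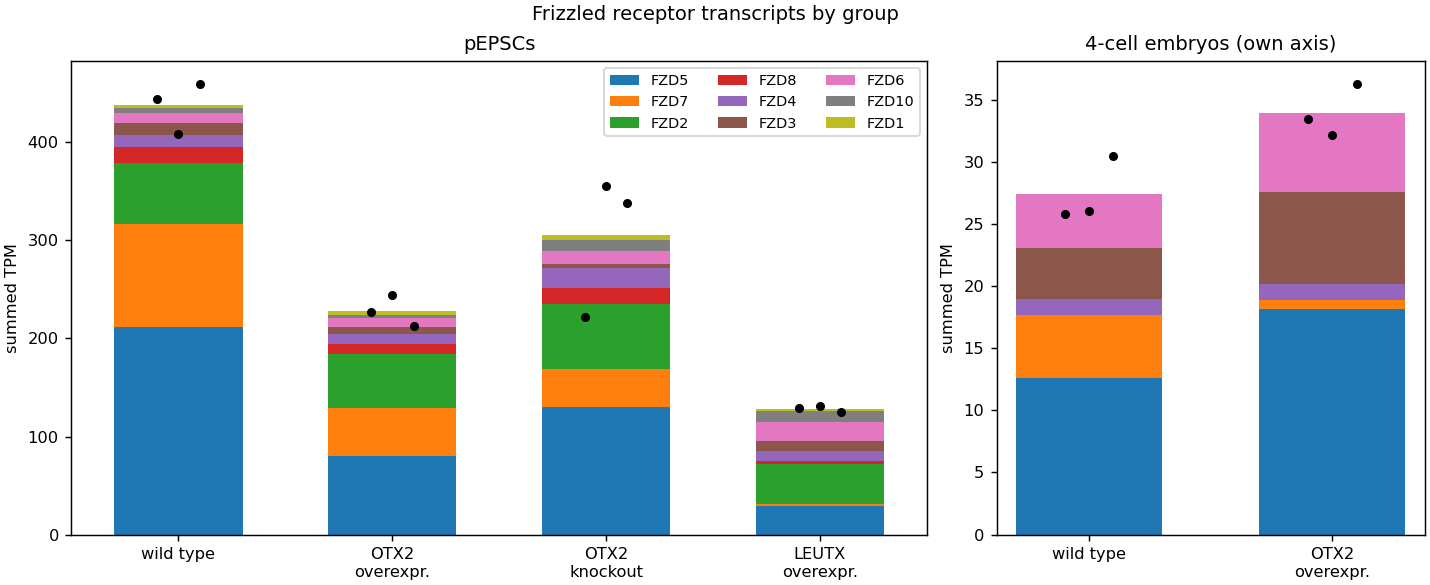
Summed TPM of the Frizzled genes by group, with stacked bars of group means by gene and 1 black point per library for the total. In pEPSCs (9 genes) the total is 438 TPM in wild type and 128 TPM with LEUTX overexpression, where the FZD5 and FZD7 segments are shortest. Embryos (5 genes) are on their own axis.

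Across the 16 receptors and co-receptors, 15 were tested in each pEPSC comparison. With OTX2 overexpression 3 rose and 8 fell. PTK7, a planar polarity co-receptor, rose from 37.0 ± 3.05 to 127 ± 6.68 TPM, and ROR1, a receptor for WNT5A, fell from 23.4 ± 1.05 to 8.78 ± 0.732 TPM. Among the LRP co-receptors, chosen for mention after their values were seen, LRP5 rose by 1.67 and LRP6 fell by 1.02. In the knockout 1 rose and 6 fell. The gene that rose was FZD10, from 5.45 ± 0.483 to 11.6 ± 2.58 TPM. With LEUTX overexpression 2 rose and 7 fell, and FZD8 fell from 16.5 ± 1.17 to 3.34 ± 0.133 TPM. The list medians were -0.21, -0.41 and -0.17, beside 0.20, -0.11 and 0.11 for all genes, and stayed below 0 under each of the 3 other scalings. Of all genes, 48.9%, 14.9% and 41.6% rose and 33.5%, 22.3% and 28.1% fell in these comparisons.

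SFRP1, an antagonist that binds WNT ligands, rose with OTX2 overexpression and fell in the knockout. Wild-type libraries held 110, 110 and 114 TPM, OTX2 overexpression 155, 157 and 151 TPM, and the knockout 31.5, 44.6 and 46.5 TPM. No groups overlapped. SFRP1 rose by 0.46 with OTX2 overexpression (SE 0.0462, adjusted p = 4.64e-06), beside a median of 0.20 for all genes, and the change ranged from 0.27 to 0.48 over the other settings. It fell by 1.44 in the knockout (SE 0.158, adjusted p = 0.00128). With LEUTX overexpression it was at 20.5, 22.3 and 18.1 TPM, the lowest group, and fell by 2.40 (SE 0.0723, adjusted p = 1.55e-08).

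SFRP2, its paralogue, followed a different course. It was at 31.2, 25.2 and 35.0 TPM in wild-type libraries, against 18.3, 22.2 and 13.5 TPM with OTX2 overexpression, all below wild type, and fell by 0.74 (SE 0.172, adjusted p = 0.00276). The knockout libraries, at 35.5, 39.8 and 33.9 TPM, overlapped wild type and did not pass (log2 difference 0.26, 95% interval -0.10 to 0.62, adjusted p = 0.223). With LEUTX overexpression SFRP2 was at 38.1, 37.6 and 37.4 TPM, all above wild type, and rose by 0.31 (SE 0.103, adjusted p = 0.0233). This small rise was lost under median-ratio scaling (adjusted p = 0.0544), when any 1 LEUTX library was left out (adjusted p from 0.0566 to 0.0650) and in the single fit of the 12 pEPSC libraries (adjusted p = 0.136).

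Among the other secreted antagonists, CER1, which binds NODAL, BMP and WNT ligands in the frog and marks the mesendoderm, was lower in all 3 engineered groups. It was at 18.1 ± 0.735 TPM in wild type, 2.28 ± 0.462 TPM with OTX2 overexpression and 4.47 ± 2.45 TPM in the knockout. With LEUTX overexpression it was listed at 0 in library 1 and at 0.103 and 0.143 TPM in the others. SFRP5 fell in the same comparisons, from 7.91 ± 0.901 TPM to 3.08 ± 0.4996, 2.58 ± 1.22 and 0.928 ± 0.356 TPM. Over the list, 4 of 7 genes rose and 3 fell with OTX2 overexpression, 1 of 6 rose and 3 fell in the knockout, and 2 of 6 rose and 4 fell with LEUTX overexpression. WIF1, 1 of the 4 with OTX2 overexpression, entered through the overexpression libraries, and CER1, SFRP5 and FRZB, 3 of the 4 that fell with LEUTX overexpression, through the wild-type libraries. The list median in the knockout was -0.59, beside -0.11 for all genes, and stayed below 0 under each of the 3 other scalings. Shares of all genes in these comparisons were 48.9%, 14.9% and 41.6% higher and 33.5%, 22.3% and 28.1% lower.

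In the R-spondin axis, which holds secreted enhancers of WNT signalling, their LGR receptors and regulators of receptor turnover, LGR4 fell in each comparison. It went from 54.6 ± 0.490 TPM in wild type to 16.8 ± 1.78 TPM with OTX2 overexpression, 27.3 ± 4.88 TPM in the knockout and 26.5 ± 0.856 TPM with LEUTX overexpression. RSPO1, an R-spondin ligand, fell from 9.13 ± 0.854 to 1.82 ± 0.439 TPM in the knockout (-1.85 on the log2 scale, adjusted p = 0.000596) and rose to 39.6 ± 2.41 TPM with LEUTX overexpression (2.01, adjusted p = 9.03e-08). KREMEN1, a DKK receptor, rose from 3.44 ± 0.737 TPM to 36.9 ± 2.78 TPM with OTX2 overexpression and to 13.2 ± 1.498 TPM with LEUTX overexpression. Counts for this list were 4 of 6 higher and 1 lower with OTX2 overexpression, 0 of 4 higher and 2 lower in the knockout, and 4 of 5 higher and 1 lower with LEUTX overexpression. RSPO2 and RSPO4 with OTX2 overexpression and RNF43 with LEUTX overexpression are among those counted higher and entered through the treated libraries alone, and RSPO2 and RSPO4 were not listed in the other 2 pEPSC tables, so these counts are not compared. Over all genes, 48.9%, 14.9% and 41.6% passed as higher and 33.5%, 22.3% and 28.1% as lower.

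Of the 15 genes tested in the cytoplasmic relay and destruction complex, 8 rose and 6 fell with OTX2 overexpression. GSK3A, a kinase that marks beta-catenin for degradation, rose from 85.4 ± 5.09 to 338 ± 13.5 TPM, and TNKS2, a tankyrase that promotes turnover of AXIN proteins, fell from 72.8 ± 1.71 to 35.9 ± 1.10 TPM. In the knockout 2 rose and 3 fell, with DVL1, a relay protein below Frizzled, at 60.0 ± 10.4 TPM in wild type and 123 ± 33.4 TPM in the knockout. With LEUTX overexpression 8 rose and 2 fell, and CSNK1A1, the kinase that primes beta-catenin for GSK3, rose from 110 ± 5.52 to 245 ± 15.6 TPM. The list medians were 0.26, -0.17 and 0.21, beside 0.20, -0.11 and 0.11 for all genes. The shares of all genes were 48.9%, 14.9% and 41.6% higher and 33.5%, 22.3% and 28.1% lower.

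AXIN2, a scaffold of the destruction complex and a widely used readout of canonical signalling, rose in both overexpression lines. It was at 12.6, 10.7 and 14.6 TPM in the wild-type libraries, 32.3, 35.9 and 33.5 TPM with OTX2 overexpression and 34.6, 39.9 and 32.8 TPM with LEUTX overexpression. Both groups were above every wild-type library and overlapped each other. AXIN2 rose by 1.36 with OTX2 overexpression (SE 0.106, adjusted p = 7.22e-07) and by 1.43 with LEUTX overexpression (SE 0.113, adjusted p = 4.62e-06), ratios of means of 2.68 and 2.83. In the knockout it was at 8.21, 17.9 and 16.5 TPM, with library 1 below and the other libraries above wild type (log2 difference 0.10, 95% interval -0.58 to 0.78, adjusted p = 0.814). Without library 1 AXIN2 passed as higher, at 0.42 (adjusted p = 0.0225).

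LEF1, a DNA-binding partner of beta-catenin and itself a target, was at 0.627, 0.639 and 0.723 TPM in wild-type pEPSCs, against 3.46, 2.99 and 2.35 TPM with OTX2 overexpression. All 3 overexpression libraries were above wild type, at a level that remained low. LEF1 rose by 1.23 (SE 0.131, adjusted p = 7.80e-06), a 4.42-fold ratio of means that rests on wild-type values under 1 TPM. It entered through the overexpression libraries alone, so its direction follows from that entry. The change ranged from 0.44 to 1.98 over the other settings that tested it. LEF1 was not tested when any 1 overexpression library was left out.

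Other target genes did not move as 1 block. With OTX2 overexpression 9 of the 13 targets tested rose and 3 fell. T and LEF1 among the first entered through the overexpression libraries and CDX4 among the second through wild type, which leaves 7 higher and 2 lower. T (brachyury), the primitive streak factor, was listed at 0 in wild-type libraries 1 and 3 and at 0.0529 TPM in library 2, and at 20.1, 21.7 and 20.8 TPM with overexpression. NKD2, an inhibitor of Dishevelled, rose from 10.9 ± 0.605 to 43.8 ± 1.11 TPM, while CCND1, a cyclin of the G1 phase, fell from 39.4 ± 2.06 to 10.9 ± 0.671 TPM. In the knockout 3 of 12 rose and 2 fell, and CDX1, a caudal-type homeobox factor that entered through the knockout libraries, was at 24.3 ± 5.64 TPM there against 0.918 ± 0.699 TPM in wild type. With LEUTX overexpression 9 of 12 rose and 1 fell, with RNF43 among the 9 entering through the LEUTX libraries. There CDX4 rose from 2.18 ± 0.221 to 19.3 ± 0.588 TPM, and CCND1 rose to 116 ± 5.50 TPM, the opposite of its direction with OTX2 overexpression. The list holds lineage factors and cell cycle genes that other pathways also regulate. Its counts stand beside 48.9%, 14.9% and 41.6% of all genes higher and 33.5%, 22.3% and 28.1% lower.

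TCF/LEF factors and cofactors counted 6 higher and 0 lower of 11 with OTX2 overexpression, 0 and 1 of 9 in the knockout, and 4 and 4 of 10 with LEUTX overexpression. LEF1 and PYGO1 in the first count and PYGO1 in the third entered through the treated libraries alone. Under median-ratio scaling the first of these became 6 higher and 4 lower. TCF7, a TCF factor, fell from 8.69 ± 1.85 to 4.76 ± 0.382 TPM in the knockout and rose to 28.6 ± 1.64 TPM with LEUTX overexpression. TLE3, a corepressor of TCF/LEF factors, rose from 42.6 ± 5.17 to 129 ± 6.93 TPM with OTX2 overexpression. In the planar cell polarity list PRICKLE1, a cytoplasmic core protein, fell from 59.8 ± 2.95 TPM to 10.1 ± 0.441 TPM with OTX2 overexpression, 26.2 ± 7.28 TPM in the knockout and 9.16 ± 1.04 TPM with LEUTX overexpression. That list counted 4 higher and 1 lower of 7, then 0 and 2, then 3 and 2, in the same order, with PRICKLE2 in the knockout entering through wild type. The counts of both lists stand beside 48.9%, 14.9% and 41.6% of all genes higher and 33.5%, 22.3% and 28.1% lower.

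**Figure D3:**
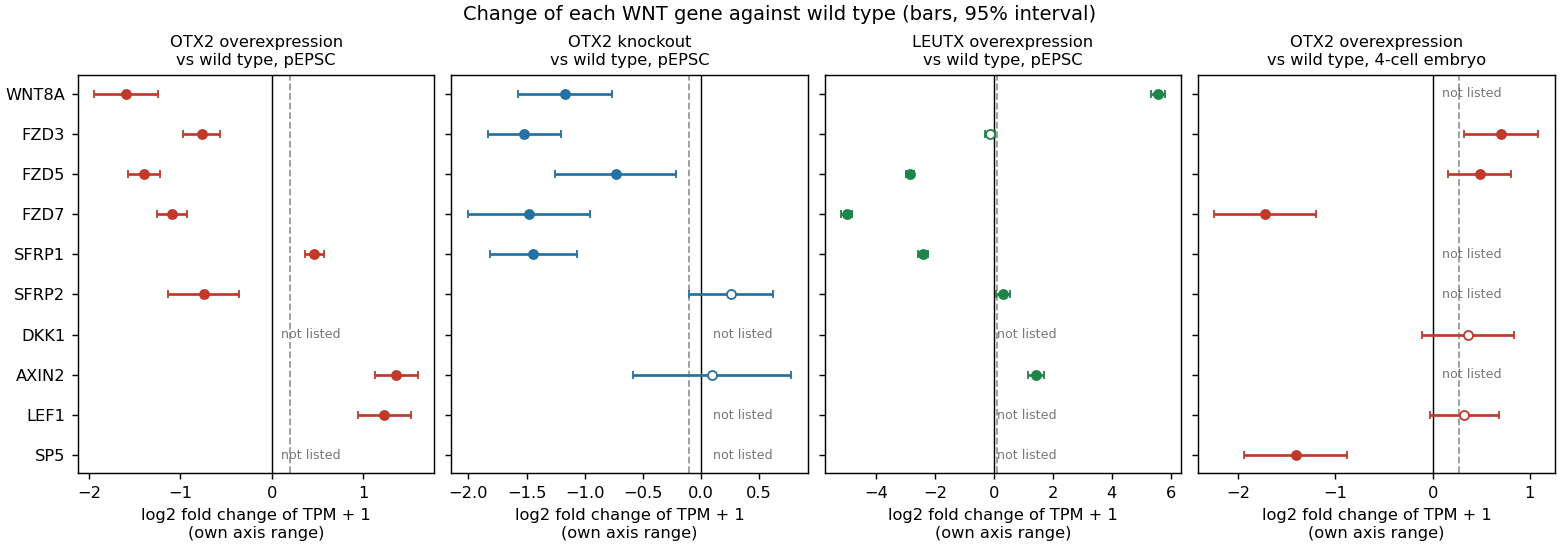
Log2 fold change of TPM + 1 against wild type for each WNT gene in 4 comparisons, with 95% intervals and an own axis range per panel. Filled points passed the limma test and open points did not, and the dashed line is the median of all genes tested (0.20, -0.11, 0.11 and 0.28). FZD7 is left of 0 in all 4 panels, and WNT8A is at 5.56 with LEUTX overexpression.

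The engineered lines were compared with each other in 1 fit of the 12 pEPSC libraries on the 11989 genes that all 3 tables hold. Between OTX2 overexpression and knockout, 6 of 7 members passed, 3 higher and 3 lower, where 65.0% of all genes passed (40.8% higher, 24.2% lower). SFRP1 was the member furthest apart, higher with overexpression by 1.91 (SE 0.129, adjusted p = 1.31e-07), followed by AXIN2 at 1.27 (SE 0.225, adjusted p = 0.000373) and FZD3 at 0.75 (SE 0.101, adjusted p = 3.99e-05). SFRP2 was lower with overexpression (95% interval -1.36 to -0.64, adjusted p = 0.000190), and FZD5 by a log2 difference of -0.66 (SE 0.177, adjusted p = 0.00611). WNT8A was lower by -0.42 (adjusted p = 0.0282), a call lost without overexpression library 3, knockout library 3 or knockout library 4 (adjusted p from 0.0522 to 0.125). FZD7 did not pass, with a difference of 0.39 and an adjusted p of 0.0741, and it passed as higher under quantile normalization and when knockout library 3 or 4 was left out (adjusted p from 0.0265 to 0.0480).

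Between LEUTX and OTX2 overexpression, 6 of 7 members passed, 3 higher and 3 lower, where 66.9% of all genes passed (33.7% higher, 33.2% lower). WNT8A was higher with LEUTX by 7.16 (SE 0.152), SFRP2 by 1.05 (SE 0.163) and FZD3 by 0.64 (SE 0.101). FZD7 was lower by a log2 difference of -3.91 (SE 0.180), SFRP1 by -2.87 (SE 0.129) and FZD5 by -1.43 (SE 0.177). AXIN2 did not pass, and its difference of 0.07 had an interval from -0.42 to 0.56 (adjusted p = 0.802). Between LEUTX overexpression and OTX2 knockout, again 6 of 7 passed, 3 each way, where 64.0% of all genes passed (42.1% higher, 21.9% lower). WNT8A was higher with LEUTX by 6.73 (SE 0.152), FZD3 by 1.39 (SE 0.101) and AXIN2 by 1.34 (SE 0.225), and FZD7 was lower by -3.51 (SE 0.180). SFRP2 did not pass (0.05, 95% interval -0.30 to 0.41, adjusted p = 0.796). Under quantile normalization the 4889 higher and 2905 lower genes of OTX2 overexpression against knockout became 4009 and 4692, and the 5043 and 2624 of LEUTX overexpression against knockout became 4005 and 3996.

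In wild-type 4-cell embryos, LEF1 was the highest member at 15.04 ± 1.36 TPM, followed by FZD5 at 12.6 ± 0.562 TPM. DKK1 at 5.89 ± 1.16 TPM, FZD7 at 5.06 ± 1.82 TPM, FZD3 at 4.13 ± 0.658 TPM and SP5 at 2.84 ± 1.25 TPM each overlapped the next in the order. The embryo and pEPSC tables were normalized separately from libraries of different protocols, and the embryo libraries had 41.5% to 46.9% of their TPM in mitochondrial protein genes against 8.20% to 20.4% in pEPSCs. Levels are therefore set side by side and not compared. FZD5 and LEF1 stood at 212 and 0.663 TPM in wild-type pEPSCs, and DKK1 and SP5 were listed in embryos alone.

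FZD7 and SP5 fell with OTX2 overexpression in embryos. Wild-type embryos held 3.40, 4.76 and 7.01 TPM of FZD7, against 0.694, 0.966 and 0.700 TPM with overexpression. The groups did not overlap, and FZD7 fell by 1.72 (SE 0.228, adjusted p = 0.00228), a 6.43-fold ratio of means. SP5, a zinc finger factor and direct target of canonical signalling in mouse, was at 1.96, 2.28 and 4.28 TPM in wild-type embryos, against 0.585, 0.310 and 0.319 TPM with overexpression. It did not overlap either and fell by 1.41 (SE 0.232, adjusted p = 0.00517). Both genes were under 1 TPM in every overexpression library, so their p-values carry the limit of entry through wild type given above. LEUTX, TFAP2C and NANOG fell in the same libraries, and their part in these values was not tested.

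FZD3 and FZD5 passed as higher in embryos, with less margin. FZD3 was at 3.79, 3.71 and 4.89 TPM in wild-type embryos, against 6.39, 7.84 and 7.89 TPM with overexpression, without overlap, and rose by 0.71 (SE 0.166, adjusted p = 0.0176). FZD5 was at 12.2, 12.4 and 13.2 TPM in wild-type embryos, against 17.8, 16.0 and 20.6 TPM with overexpression, also without overlap, and rose by 0.49 (SE 0.141, adjusted p = 0.0347). All genes had a median of 0.28 in this comparison. Under median-ratio scaling, which took that median to 0.02 and the calls over all genes from 1835 higher and 678 lower to 292 and 846 (611 and 755 under quantile normalization, 956 and 700 without mitochondrial genes), the values became 0.45 for FZD3 (adjusted p = 0.107) and 0.20 for FZD5 (adjusted p = 0.403). FZD3 was also lost without wild-type library 2 or overexpression library 2 or 3, and FZD5 without any 1 library but overexpression library 1. The FZD5 call was lost too under quantile normalization (adjusted p = 0.148) and without mitochondrial genes (adjusted p = 0.0820).

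DKK1 and LEF1 did not pass in embryos. DKK1 was at 7.18, 5.56 and 4.94 TPM in wild-type embryos, against 5.91, 8.20 and 9.72 TPM with overexpression, with overlapping groups (log2 difference 0.37, 95% interval -0.11 to 0.84, adjusted p = 0.201). LEF1 was at 15.3, 13.6 and 16.3 TPM in wild-type embryos, against 16.2, 21.8 and 19.7 TPM with overexpression, overlapping in 1 library (0.33, 95% interval -0.02 to 0.68, adjusted p = 0.130). The 5 Frizzled genes listed in embryos summed to 27.4 ± 2.66 TPM in wild type and 34.0 ± 2.13 TPM with overexpression, a log2 ratio of 0.31 that was 0.0019 under median-ratio scaling. FZD7 was 18.2% of this total in wild type and 2.34% with overexpression.

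**Figure D4:**
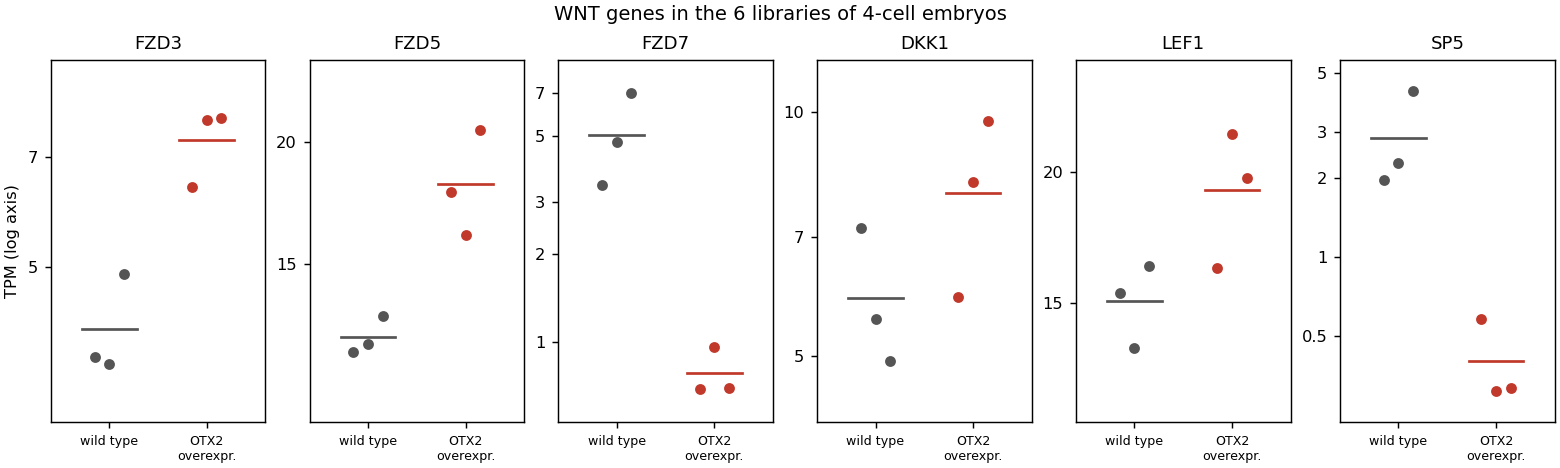
TPM (log axis, own range per panel) of the 6 WNT genes listed in 4-cell embryos, with 1 point per library of 10 pooled embryos and a line at each group mean. FZD7 and SP5 lie under 1 TPM in all 3 overexpression libraries, and the DKK1 and LEF1 groups overlap.

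Of the wider pathway, fewer genes were listed in embryos. WNT3 was the ligand listed, at 1.41 ± 0.309 TPM in wild type, and it did not pass. CTNNB1, which encodes beta-catenin, rose from 50.1 ± 3.93 to 88.3 ± 3.47 TPM, by 0.81 on the log2 scale (adjusted p = 0.00338), and WLS rose from 57.2 ± 10.8 to 86.4 ± 6.84 TPM. TCF7 rose from 6.19 ± 0.870 to 9.83 ± 0.497 TPM. MYC, a growth regulator among the targets, entered through wild type alone, at 8.66 ± 4.40 TPM there and 0.501 ± 0.383 TPM with overexpression. Counts were 2 higher and 1 lower of 8 receptors, 0 of 5 antagonists in either direction, 0 of 2 in the R-spondin axis, 2 higher and 1 lower of 9 relay genes, 2 higher of 8 TCF/LEF factors and cofactors, 2 higher of 3 polarity genes, and 1 higher and 2 lower of 6 targets. FZD7 among the receptors, MYC and SP5 among the targets and VANGL1 among the polarity genes entered through 1 group alone. Of all genes tested in embryos, 21.5% passed as higher and 7.93% as lower, and these counts are read beside those shares. Under median-ratio scaling no ligand, secretion, receptor, antagonist, R-spondin, TCF/LEF, polarity or target gene passed as higher, and 1 relay gene did.

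**Figure D5:**
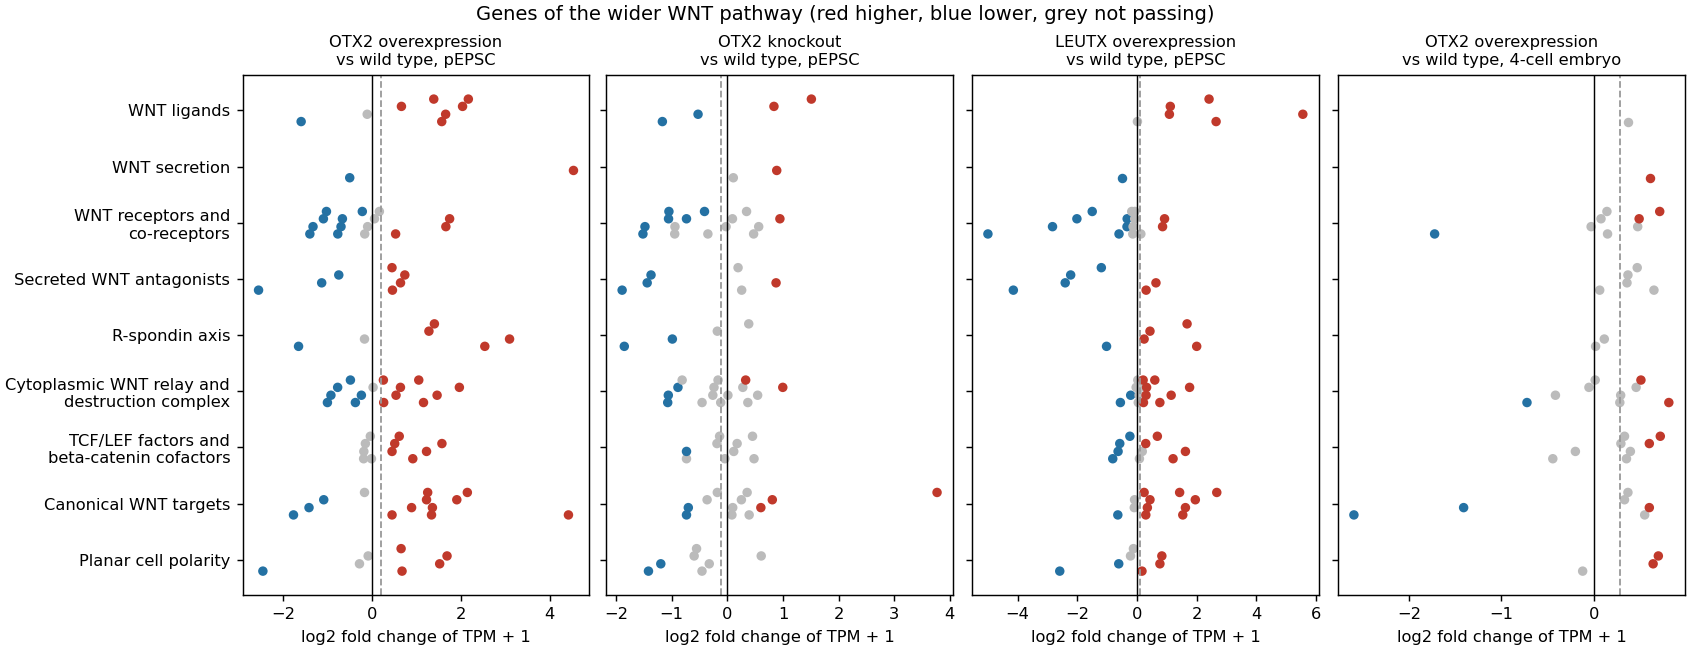
Log2 fold change of TPM + 1 against wild type for every tested gene of 9 WNT pathway lists in 4 comparisons, with red points higher, blue points lower and grey points not passing, and an own axis range per panel. The dashed line is the median of all genes. Receptors have more blue than red points in the 3 pEPSC panels. The red ligand points with OTX2 overexpression are all genes under 1 TPM in wild type.

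The effect of OTX2 overexpression in embryos was set against that in pEPSCs by fitting an interaction over the 7478 genes that both tables hold, which compares fold changes within each table and no levels. All 4 members in both tables passed, 2 higher and 2 lower, where 65.8% of all genes passed (44.4% higher in embryos, 21.4% lower, or 2237 and 2122 genes under median-ratio scaling against 3321 and 1599). FZD5 differed by 1.88 (SE 0.157, adjusted p = 9.65e-07) and FZD3 by 1.47 (SE 0.171, adjusted p = 1.06e-05), since both fell in pEPSCs and passed as higher in embryos. The median difference of all genes was 0.36. Both embryo calls were lost under median-ratio scaling, as given above. The differences of FZD5 and FZD3 ranged from 1.53 to 1.96 and from 1.14 to 1.67 over the other settings. LEF1 differed by -0.90 (SE 0.193, adjusted p = 0.00122) and FZD7 by -0.63 (SE 0.247, adjusted p = 0.0383), the latter falling in both. LEF1 in pEPSCs and FZD7 in embryos entered through 1 group alone. The direction of those changes follows from that entry, so the p-values of LEF1 and FZD7 here carry the same limit. The FZD7 difference was lost on leaving out any of 8 of the 12 libraries (adjusted p from 0.0558 to 0.0847).

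For the 7 members in all pEPSC tables, the most alike genes over the 12 libraries were sought by Pearson's r on log2(TPM + 1) among 11157 genes. These libraries fall into 4 groups and share depth and scaling, so r mostly reads the order of group means and is given as a description. Closest to WNT8A was STS, the steroid sulfatase gene, with r = 0.997, followed by UGT1A6 and KCNMB4. STS was at 109 TPM on average with LEUTX overexpression and 3.40 to 9.13 TPM in the other groups. Closest to FZD7 were CHN2 (r = 0.989), the orphan nuclear receptor gene NR6A1 and EOMES, a T-box factor of mesendoderm and trophoblast. EOMES was at 13.5 TPM in the wild-type libraries, 5.17 and 5.63 TPM with OTX2 overexpression and knockout, and 0.161 TPM with LEUTX overexpression. FZD5 was most like LRRN1 (r = 0.992), ANKRD13A and SLC16A3, and FZD3 was most like RBBP4 (r = 0.994), NAPEPLD and MEX3B. SFRP1 was most like SLC39A8 (r = 0.984), and next came CYP26A1, which encodes a retinoic acid-degrading enzyme. SFRP2 was most like GRB7 (r = 0.968), CXXC5 and ABHD12B, and AXIN2 most like DHX37 (r = 0.992), FAM206A and TMEM94.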

How the data were processed

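RNA of 12 pEPSC and 6 embryo libraries was analysed. Gene levels were deposited by the authors as TPM in 4 tables, each with 6 libraries and 8643 to 13293 genes, and the TPM columns sum to 997004 to 998040, so depth per library is unknown and no detection floor was computed. Per the submitters' processing notes, the tools include Trim Galore 0.6.6, STAR 2.7.3, StringTie 2.1.4 and featureCounts 2.0.0 with no role given, on Sscrofa11.1. The 3 pEPSC tables hold the same wild-type values. Genes reaching 1 TPM in 3 or more libraries of a fit were tested on log2(TPM + 1) with limma 3.58.1 (trended, robust) in R 4.3.3, each table alone and without covariates, with Benjamini-Hochberg adjustment over all genes tested and a threshold of 0.05. The script was tested on simulated data. Differences between engineered lines came from 1 fit of the 12 pEPSC libraries. Alternatives were no filter, a pseudocount of 0.1, quantile normalization, median-ratio scaling, rescaling without mitochondrial genes, a replicate block, 1 fit of 12 libraries and each library left out. Left-out embryo libraries without the filter, and all rescalings of the Frizzled sums, were added after seeing the data. The members, the 17 gene lists and the rule for named genes (the members, the targeted genes, up to 3 called genes of smallest adjusted p per list, and the 3 genes most like each member) were chosen with earlier results of these data known, and not all genes the rule gives are printed. Tables and plots were made with Python 3.11.15, pandas 2.3.3 and matplotlib 3.10.9. Gene positions are from RefSeq, and no sequence is printed. A further gene like SFRP1 is not reported here.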

Additional observations from a re-analysis of the deposited data

Results flagged for a closer look

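Under OTX2 overexpression, 4 members had an effect that differed between 4-cell embryos and pEPSCs by the interaction term of limma. The difference of log2 fold changes, embryo minus pEPSC, was 1.47 for FZD3 (adjusted p = 1.06e-05), with all 3 overexpression libraries below wild type in pEPSCs and all 3 above it in embryos. It was 1.88 for FZD5 (adjusted p = 9.65e-07), with the same directions. It was -0.63 for FZD7 (adjusted p = 0.0383), which was below wild type in all 3 overexpression libraries of both. It was -0.90 for LEF1 (adjusted p = 0.00122), which rose in pEPSCs from under 1 TPM and did not pass in embryos. FZD7 in embryos and LEF1 in pEPSCs entered through 1 group alone, so their p-values carry the limit of entry given above. The median difference of all genes was 0.36. Protocol, table and starting material differ together between embryos and pEPSCs and cannot be told apart.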

How the results depend on the processing

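Over the scalings, filters, pseudocount, replicate block and 12-library fit, 272 gene results kept their side of the threshold, 3 newly passed and 7 no longer passed. With 1 library left out these counts were 332, 3 and 34. No gene that passed changed direction. In embryos the 4 members passing became 2 under median-ratio scaling, and 0 to 4 when 1 library was left out. FZD7 and SP5 were no longer tested without any 1 of the wild-type libraries, and FZD3 and FZD5 no longer passed without overexpression library 2 or 3. Without the filter the left-out fits gave 2 to 4, and FZD7 and SP5 passed in each. These fits do not lift the limit of entry, since both genes are listed in embryos only through wild type. In pEPSCs LEF1 was not tested when any 1 overexpression library was left out. Over all genes, the 2513 embryo calls became 1366 under quantile normalization, 1138 under median-ratio scaling, 1656 without mitochondrial genes, 1619 with the replicate block and 849 without wild-type library 2, 1255 without wild-type library 3, 871 without overexpression library 2 and 1367 without overexpression library 3. The 4552 knockout calls became 2055, 2280 and 2421 without wild-type library 1, 2 or 3 and 7706 without knockout library 1. The cause was not tested. Replicate numbers did not pair the libraries (same-number correlations from -0.21 to 0.07 in deviations from the group means). With the replicate block, 8, 6 and 3 members passed for OTX2 overexpression, LEUTX overexpression and embryos, with FZD5 lost in embryos (adjusted p = 0.0667). No paired analysis was possible for the knockout because its columns carry other numbers than the titles. The direct comparisons of engineered lines and the interaction were fitted without a block. With 3 libraries per group and unknown depth, values under 1 TPM (LEF1, WNT8A, FZD7 and SP5 in some libraries) are the least certain.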
